A study of Mus musculus with 4 samples.

Results

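Immature granule-gene neutrophils of trabecular bone were taken as the barcodes of the 2 trabecular single-cell libraries with at least 500 UMIs (unique molecular identifiers, 1 per captured transcript), at least 200 genes and at most 10% of UMIs from mitochondrial genes, of which at least 1% came from Ngp, Camp and Ltf together and less than 0.5% from Elane, Mpo and Prtn3 together. This rule gave 2484 cells of the 8765 trabecular barcodes that passed the 3 filters (28.3%), and 23216 barcodes passed them in the whole series. The cells came from male C57BL/6J mice that carried a subcutaneous slow-release pellet from 20 weeks of age, and bone was collected at week 2. The GC group carried prednisolone at 6.25 mg/kg/d, a synthetic glucocorticoid, and the control group a placebo pellet. Trabecular bone and fracture callus were digested with collagenase, dispase and DNase and loaded on a 10x Genomics instrument, which gave 4 libraries, 1 for each tissue and treatment. The labels give the pellet for all of them, while the study's text describes the fracture mice as injected with prednisolone daily, so the route in callus is uncertain. The number of mice behind a library was not given in the sources used here, and no gate on surface markers was described. With 1 library per condition a difference between the GC and control libraries had no replicate check, so no p-value was computed, and every interval below covers counting error only.

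Neutrophils are made in the marrow in ordered steps. Promyelocytes load azurophil granules with myeloperoxidase and elastase, then myelocytes and metamyelocytes, the last dividing and first non-dividing stages, load specific granules with lactoferrin, cathelicidin and lipocalin-2, and band and segmented cells make gelatinase granules and the receptors used to leave the marrow. The CCAAT/enhancer binding protein epsilon (Cebpe) is required for the specific granule step. Glucocorticoids bind the glucocorticoid receptor, which enters the nucleus and raises genes such as Tsc22d3 and Fkbp5, and they are known to raise the number of blood neutrophils.

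The 5 marker genes lie on 3 chromosomes. Their promoters are shown because 3 of them, Ngp, Camp and Ltf, chose the cells, and because the 5 ratios between the GC and control libraries were unlike. The other 2, Lcn2 and Chil3, are named as markers but were also present in neighbouring classes. The sequences are RefSeq promoters on GRCm38.p6, from 250 bases before to 50 bases after the annotated start, 5′ to 3′ on the gene's strand, and capitals mark the letters TTGCNNAA of a C/EBP site on either strand. Ngp, neutrophilic granule protein, has chr9:110419558-110419857 on the plus strand. Camp, the cathelicidin, has chr9:109849407-109849706 on the minus strand. Ltf, lactoferrin, has chr9:111019042-111019341 on the plus strand. Lcn2, lipocalin-2, has chr2:32387690-32387989 on the minus strand, and Chil3, the chitinase-like protein Ym1, has chr3:106167515-106167814 on the minus strand.
Ngp: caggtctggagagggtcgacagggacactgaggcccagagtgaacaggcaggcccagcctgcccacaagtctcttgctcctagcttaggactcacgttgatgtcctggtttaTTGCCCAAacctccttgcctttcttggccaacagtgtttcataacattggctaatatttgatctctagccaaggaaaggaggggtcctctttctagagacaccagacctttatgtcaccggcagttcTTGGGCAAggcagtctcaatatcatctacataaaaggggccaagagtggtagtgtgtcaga
Camp: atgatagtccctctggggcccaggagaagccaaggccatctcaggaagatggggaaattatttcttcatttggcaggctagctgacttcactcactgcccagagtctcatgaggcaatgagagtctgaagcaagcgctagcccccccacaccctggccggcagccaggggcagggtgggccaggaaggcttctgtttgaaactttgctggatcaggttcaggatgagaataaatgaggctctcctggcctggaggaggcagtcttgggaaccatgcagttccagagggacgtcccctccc
Ltf: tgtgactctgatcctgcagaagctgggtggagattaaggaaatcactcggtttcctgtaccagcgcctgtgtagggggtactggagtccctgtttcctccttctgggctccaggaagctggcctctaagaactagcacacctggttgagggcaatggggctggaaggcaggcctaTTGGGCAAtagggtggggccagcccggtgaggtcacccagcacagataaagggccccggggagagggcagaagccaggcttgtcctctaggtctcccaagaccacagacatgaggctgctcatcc
Lcn2: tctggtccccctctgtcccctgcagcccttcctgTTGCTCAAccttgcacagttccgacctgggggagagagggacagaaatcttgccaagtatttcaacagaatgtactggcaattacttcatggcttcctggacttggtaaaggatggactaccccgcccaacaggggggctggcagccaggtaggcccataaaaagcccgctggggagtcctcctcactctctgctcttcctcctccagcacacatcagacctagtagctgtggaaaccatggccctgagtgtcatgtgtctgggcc
Chil3: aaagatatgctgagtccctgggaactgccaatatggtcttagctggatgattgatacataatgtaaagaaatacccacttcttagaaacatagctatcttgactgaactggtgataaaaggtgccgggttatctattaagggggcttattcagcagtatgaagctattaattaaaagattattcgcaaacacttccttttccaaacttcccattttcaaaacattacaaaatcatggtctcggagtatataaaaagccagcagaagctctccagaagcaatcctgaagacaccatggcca
The C/EBP letters occurred 2 times in the Ngp promoter, 1 time each in those of Ltf and Lcn2, and not in those of Camp and Chil3. Of all 32851 RefSeq promoters of this length, 10.8% held them. The glucocorticoid receptor letters GNACANNNTGTNC, which read the same on both strands, were in none of these 5 windows and in 0.475% of all promoters. A match or its absence describes these letters in these windows only.

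Ngp, Camp and Ltf chose the cells and made up a median of 8.49% of a cell's UMIs in the control and 5.75% in the GC library. The pooled RNA of barcodes under 100 UMIs held 2.44% and 1.36% of these genes, so they were part of the free RNA. Over all barcodes with at least 20% of UMIs from hemoglobin genes, which should lack them, the median was 0.0355% in the control and 0.0288% in the GC library and the 95th percentile 0.151% and 0.189%. Of these barcodes 6 of 271 in the control and 15 of 568 in the GC library passed the 1% limit and counted among the chosen cells. Called hemoglobin-rich in what follows are the other 265 and 553. The markers that the rule did not use, Lcn2 and Chil3, were present in both libraries but also in neighbouring classes. Summed over cells, Lcn2 was at 15023 CPM (UMIs of the gene per 1000000 UMIs) in the control and 19328 CPM in the GC cells, against 4957 and 9051 CPM in mature neutrophils and 336 and 759 CPM in hemoglobin-rich barcodes. Chil3 was at 4846 and 15421 CPM, against 133 and 6350 CPM in mature neutrophils. Just below and above the 1% limit neither set the cells apart, with Lcn2 at 8400 and 8766 CPM in the control library and Chil3 at 5257 and 4624 CPM in the GC library. Per cell, Lcn2 was at a median of 1.37% of a cell's UMIs in the control and 1.71% in the GC library. Chil3 was at 0.271% in the control and 1.22% in the GC library. The alarmins S100a8 and S100a9, calcium-binding proteins that neutrophils carry in bulk, took a median of 17.2% each in the control library and 16.0% and 15.6% in the GC library. At the low end the label is less clear. In cells with a granule gene share of 1 to 2% the late genes Retnlg, Csf3r, Cxcr2, Il1b and Msrb1 together took a median of 3.60% in the control and 3.74% in the GC library, near the 3.61% and 3.99% of mature neutrophils as defined below.

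**Figure D1:**
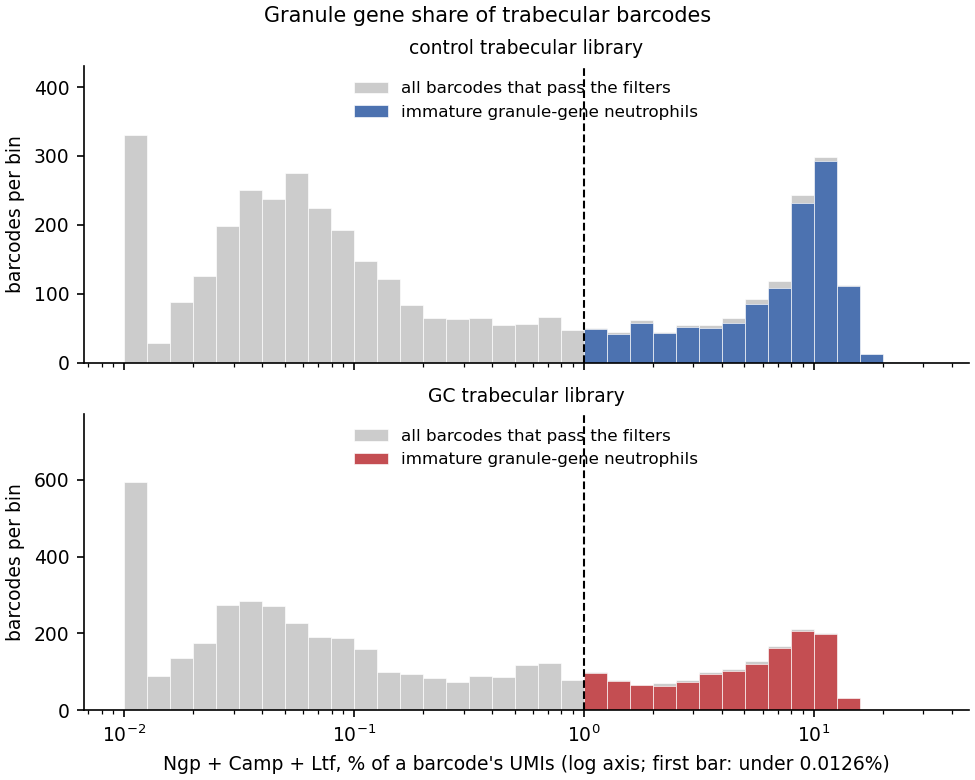
Share of UMIs from Ngp, Camp and Ltf in every trabecular barcode that passed the filters (x axis, percent, log scale) against the number of barcodes per bin (y axis), one panel per library. The dashed line is the 1% limit and the coloured bars are the cells chosen, 1192 in the control and 1292 in the GC library.

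The distribution of the granule gene share had a low group, a high group and a flat stretch between them that the 1% limit crossed. Just below it (0.8 to under 1%) lay 45 control and 76 GC barcodes, and just above it (1 to under 1.2%) 38 and 78. Both sides had much the same genes. Retnlg, a resistin-like protein of late neutrophils, was at 38323 CPM just below and 39019 CPM just above the limit in the control library. Mmp8, the neutrophil collagenase, was at 3127 and 3154 CPM there. The other limit, on the azurophil genes, had 8 control and 8 GC barcodes just inside (0.3 to under 0.5%) and 9 and 3 just outside (0.5 to under 0.7%).

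The control library held 1192 such cells among 3977 barcodes, 30.0% (exact Clopper-Pearson 95% interval 28.6 to 31.4%). The GC library held 1292 among 4788, 27.0% (25.7 to 28.3%). The share depends on what else each library held: hemoglobin-rich barcodes numbered 265 in the control and 553 in the GC library, and B cells, found by Cd79a and Cd79b among barcodes of no neutrophil or progenitor class, 299 and 15. With barcodes of at least 5% hemoglobin left out of the cells and of the total, the shares were 32.3% and 30.4%. Progenitors and promyelocytes (at least 0.5% Elane, Mpo and Prtn3) numbered 194 and 229, and mature neutrophils (less than 1% Ngp, Camp and Ltf, less than 0.5% of the azurophil genes, and at least 0.5% Retnlg, Csf3r, Cxcr2, Il1b and Msrb1) 1476 and 2018. The trabecular libraries held 41239842 and 45876714 UMIs in all, of which the immature cells held 12041886 and 12650918. Their median depth was 8818.5 UMIs and 1682.5 genes per cell in the control and 8241.5 UMIs and 1707.5 genes in the GC library. Between the 2 trabecular libraries 7 barcodes that passed the filters were shared, of which 1 was such a cell in both.

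Against the stages on either side, the cells summed together held both specific granule genes and the first genes of the late program. Single cells differed in this, since Retnlg and Mmp8 ranked against Camp across cells, as given below. These contrasts follow from how the cells were chosen and are descriptions. The highest ratios over progenitors, among genes of at least 200 CPM, belonged to Mmp9, the gelatinase, with 1341 CPM against 24.0 (log2 ratio 5.54), then Ltf, Mmp8 (5.25), Plbd1, a phospholipase B-like granule protein (5.21), and Ly6g, the surface antigen used to sort mouse neutrophils (4.86). Retnlg (4.48), Fpr2, a formyl peptide receptor (4.70), and Adam8, a surface metalloprotease (4.29), were also among the 10 highest. Over mature neutrophils, Camp (6.98), Ltf (6.45) and Ngp (4.38) led by the rule itself. Beyond those 3 stood Lta4h, which makes leukotriene B4 (3.45), Serpinb1a, an inhibitor of neutrophil elastase (3.01), Cybb, the membrane subunit of the NADPH oxidase (3.01), and Ltb4r1, the leukotriene B4 receptor (2.03).

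**Figure D2:**
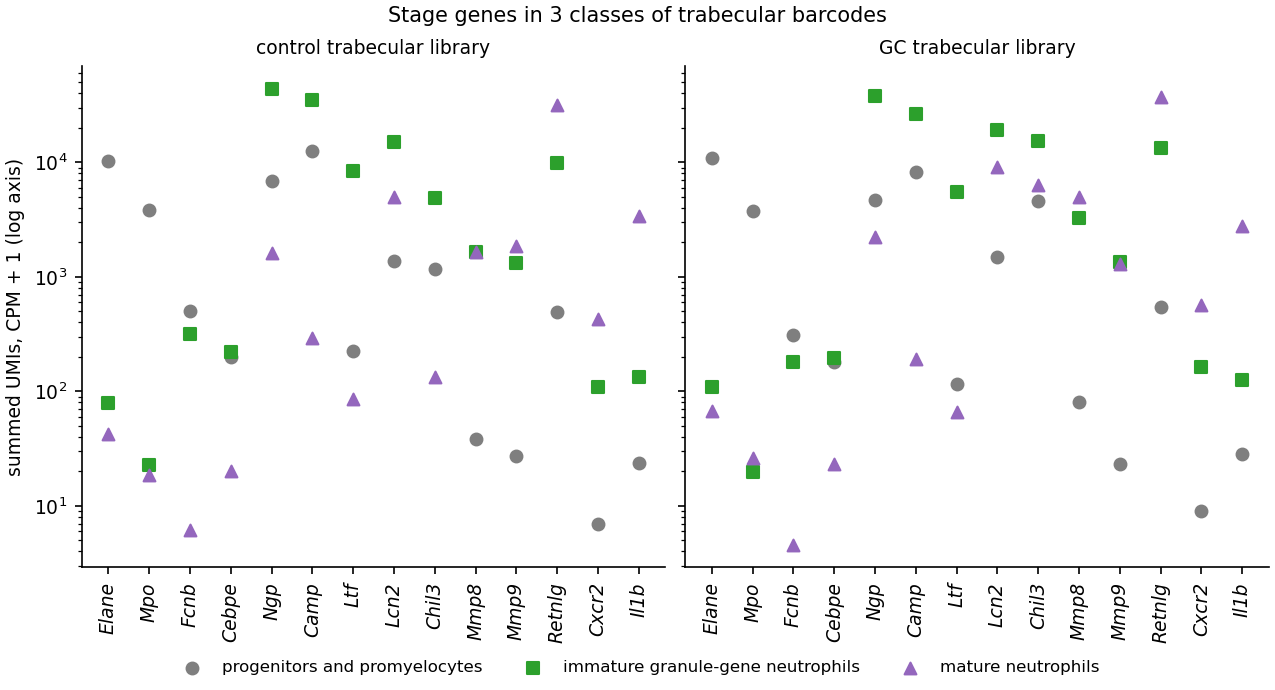
Summed UMIs as CPM plus 1 (y axis, log scale) of 14 stage genes (x axis) in progenitors and promyelocytes, immature granule-gene neutrophils and mature neutrophils of the control (left) and GC (right) trabecular library; each point is 1 class of 1 library. Ngp, Camp and Ltf peak in the immature cells, Elane and Mpo in progenitors and Il1b in mature neutrophils, while mature neutrophils are at 133 CPM of Chil3 in the control and 6350 CPM in the GC library.

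The rule kept the azurophil genes low. Elane, neutrophil elastase, was at 77.9 CPM in the control and 107 CPM in the GC cells, against 10183 and 10961 CPM in progenitors. Mpo, myeloperoxidase, was at 21.9 and 18.8 CPM against 3847 and 3749 CPM. In hemoglobin-rich barcodes, where both are background, Elane was at 33.3 and 50.6 CPM and Mpo at 17.2 and 16.2 CPM. Both genes were used to choose both classes, so this contrast is built in and is a description.

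Within the 2484 cells the granule gene share ran up to 32.5% in the control and 15.2% in the GC library, and the other genes moved along it. In the control library Camp went from 2578 CPM in cells with a share of 1 to 2% to 52256 CPM in those with 10 to 20%. Retnlg ran the other way, from 33834 to 2085 CPM. Mmp8 followed Retnlg, with 3341 CPM in the lowest and 477 CPM in the highest of these bins, as did Cxcr2, the chemokine receptor for leaving the marrow, with 265 and 40.2 CPM. Cebpe, the factor of the specific granule step, rose with the granule genes, from 45.1 to 300.0 CPM. Fcnb, a ficolin of early granulocytes, went from 6.71 to 542 CPM. Camp, Ngp and Ltf set the bins, so their own rise is built in, and the other genes share each cell's total with them.

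The ranks of single cells describe the same order and are no second source, since Camp and Ngp make up most of the share that sets the bins. Across the 1192 control and 1292 GC cells the share of Camp ranked with that of Ngp (Spearman's rho 0.79 and 0.84) and of Chil3 (0.83 and 0.77). It ranked against Retnlg (−0.81 and −0.83) and Mmp8 (−0.69 and −0.70), and hardly with S100a8 (−0.06 and −0.07). Cells are not replicates, and all genes of a cell share its depth, so these values describe the 2 libraries.

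Cells with cell cycle RNA were most frequent at a high granule gene share. A cell was counted as cycling when at least 0.5% of its UMIs came from 55 genes of S phase and of G2 and mitosis. In the control library this held for 4.05% of cells in the lowest bin, 2.99% and 13.7% in the next bins and 27.1% in the bin of 10 to 20%. In the GC library the shares were 0.837%, 2.10%, 13.8% and 28.9%. Cycling cells had a median of 18432 UMIs in the control and 19364 in the GC library, against 8151 and 7824 in the others. They held more Fcnb (745 against 148 CPM in the control library) and Chil3 (8909 against 3291 CPM), and less Retnlg (1197 against 13275 CPM) and Mmp9 (148 against 1775 CPM).

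Over all cells 183 of 1192 were cycling in the control library, 15.4% (exact binomial interval 13.4 to 17.5%), and 143 of 1292 in the GC library, 11.1% (9.41 to 12.9%). After every cell was thinned to 1000 UMIs, with 26 control and 16 GC cells left out as too shallow, the shares were 13.2% and 9.95%. Of the cells, 39 in the control and 24 in the GC library lay between 0.4% and 0.6%, close to the limit, which cuts a continuous score. For scale, 78.4% and 80.8% of progenitors and 0.813% and 0.545% of mature neutrophils were counted the same way. Within each of the 4 bins the intervals of the 2 libraries overlapped.

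The mix of cells along the granule gene share differed between the libraries. In the control library 12.4% of the cells fell in the bin of 1 to 2%, 16.9% in 2 to 5%, 35.6% in 5 to 10% and 35.0% in 10 to 20%. In the GC library the bins held 18.5%, 25.9%, 37.7% and 18.0%, and 2 control cells lay above 20%. The GC cells thus lay toward the low, Retnlg-rich end, and some comparisons below are given both over all cells and with the bins weighted alike in both libraries.

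The question of the GC comparison was what excess glucocorticoid changed in these cells. Ratios of GC over control were taken of UMIs summed over the cells, as log2 of CPM with 5 CPM added, for the 8498 genes that had 50 or more UMIs when both libraries were added. Their median log2 ratio was 0.01, and 90% of genes lay between −0.38 and 0.38. At least 2-fold higher in the GC cells were 40 genes, 0.471% of those tested, and at least 2-fold lower were 16, 0.188%. Among the same 8498 genes, those higher and lower numbered 119 and 101 with every cell thinned to 1000 UMIs, and 42 and 41 with a free RNA profile taken off. The 50 UMIs were counted before thinning, so a gene could be called on fewer after it, and the part of low counts in the 119 and 101 was not tested. Calls and log2 ratios have the 5 CPM added, while folds with their intervals are of CPM with nothing added and run higher for genes of low level. The 0.471% and 0.188% are the shares against which counts of listed genes below are read.

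**Figure D3:**
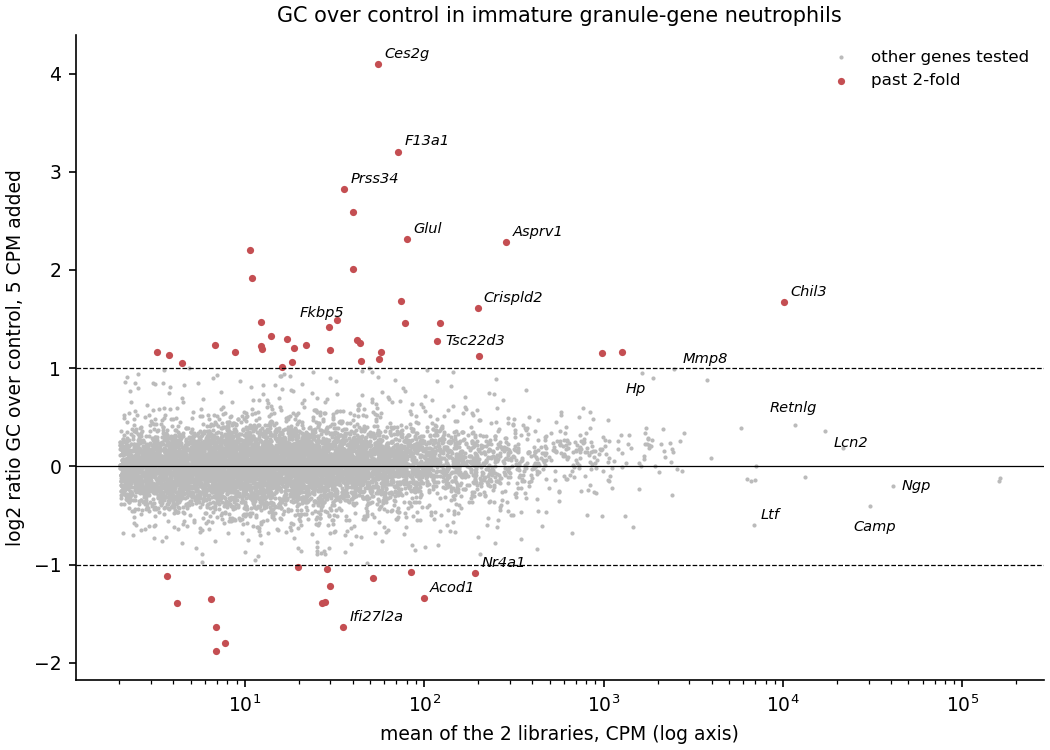
Log2 ratio of GC over control in the immature cells (y axis, 5 CPM added) against the mean level of the 2 libraries (x axis, CPM, log scale) for the 8498 genes tested. Genes past 2-fold (dashed lines) are red; Chil3 is the most abundant of them, while Ngp, Camp, Ltf and Lcn2 lie within 2-fold.

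Chil3 stood apart among the abundant genes. It was at 4846 CPM (exact Poisson interval 4807 to 4886) in the control and 15421 CPM (15353 to 15490) in the GC cells, 3.18-fold higher (3.15 to 3.21). Chil3 lies at chr3:106147554-106167564 on the minus strand and encodes a secreted lectin of neutrophils and macrophages. In hemoglobin-rich barcodes, which should lack it, Chil3 was at 46.7 CPM in the control and 586 CPM in the GC library. Whether free RNA or neutrophil RNA in some of these barcodes gave that level was not tested; the 95th percentile of S100a8 and S100a9 together in them was 1.29% in the control and 8.10% in the GC library. At 1000 UMIs per cell a Chil3 UMI was found in 75.9% of control and 98.1% of GC immature cells (92.7% and 99.7% before thinning), against 3.46% and 23.1% of hemoglobin-rich barcodes. No Chil3 UMI was found in 87 control cells and in 4 GC cells.

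The other specific granule proteins did not move as 1 group. Of the 20 genes of this list 19 had enough UMIs, 2 were past 2-fold higher, Chil3 and Orm1, none was past 2-fold lower, and the median log2 ratio was −0.05, beside 0.01 for all genes. Orm1, orosomucoid, was at 125 CPM in the control and 278 CPM in the GC cells (2.23-fold, 2.10 to 2.37). Hp, haptoglobin, was at 1313 and 2457 CPM (1.87-fold) and Mmp8 at 1653 and 3295 CPM (1.99-fold). These values, Lcn2 at 15023 and 19328 CPM (1.29-fold, 1.28 to 1.29) included, leaned toward the GC library. Cybb at 1767 and 1154 CPM (0.653-fold) and Olfm4, olfactomedin-4, at 184 and 114 CPM (0.619-fold) leaned the other way. The 3 genes that chose the cells are given as a description: Ltf was at 8339 and 5492 CPM (0.659-fold), Camp at 34831 and 26386 CPM (0.758-fold) and Ngp at 43743 and 38111 CPM (0.871-fold). Without them 8 of the 16 tested genes were above 0 and the median log2 ratio was 0.03. The level summed without them was 38666 CPM in the control and 55701 CPM in the GC cells. Of these sums Chil3 alone held 4846 and 15421 CPM, and Lcn2 held 15023 and 19328 CPM. With the 3 genes included the sums were 125579 and 125690 CPM.

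With the bins weighted alike, the log2 ratio of Camp was −0.09 in place of −0.40, that of Ngp 0.01 in place of −0.20, and that of Retnlg −0.01 in place of 0.42. Ngp, Camp and Ltf set the bins, so their bin-weighted values, −0.43 for Ltf, are built in and read as a description; Retnlg was not used to set them. Of the genes not used, Lcn2 had 0.48, Hp 0.92, Mmp8 0.67 and Orm1 1.55. Chil3 had 2.02, and its log2 ratio was 3.77, 3.32, 1.99 and 1.71 from the lowest to the highest bin. In the lowest bin Chil3 was at 406 CPM in the control and 5596 CPM in the GC cells, and in the highest at 7445 and 24287 CPM. Lcn2 had nearly the same log2 ratio in every bin, 0.52, 0.47, 0.48 and 0.47.

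**Figure D4:**
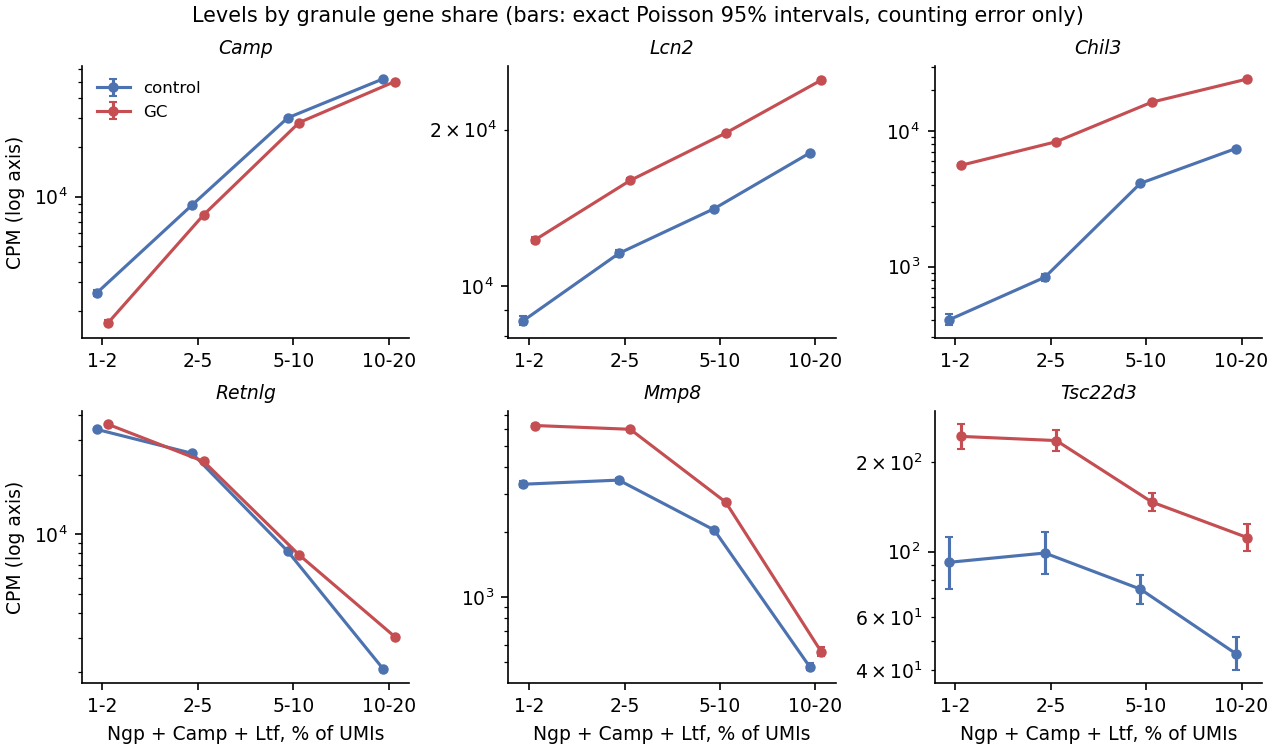
Levels of 6 genes (y axes, CPM, log scale) in bins of the Ngp, Camp and Ltf share (x axes, percent of UMIs) for the control and GC trabecular library, with exact Poisson 95% intervals as bars. Camp and Retnlg nearly coincide in the 2 libraries in the bin of 5 to 10%, while Chil3, Lcn2 and Tsc22d3 are higher in the GC library in all 4 bins.

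A few glucocorticoid target genes were past 2-fold higher in the GC cells. Of the 30 listed genes 22 had enough UMIs; 4 were past 2-fold higher and 1 lower, 17 were above 0, and the median log2 ratio was 0.32. Fkbp5, a chaperone of the receptor and part of its feedback, was at 13.7 CPM in the control and 44.9 CPM in the GC cells (3.28-fold, 2.75 to 3.92). Tsc22d3, the leucine zipper protein GILZ, was at 66.4 and 168 CPM (2.54-fold, 2.34 to 2.76), and Klf9, a Krüppel-like factor, at 22.4 and 61.7 CPM (2.75-fold, 2.39 to 3.17). With 20 CPM added in place of 5 the log2 ratios of Fkbp5 and Klf9 were 0.95 each, under 2-fold, and that of Klf9 was 0.89 with a granule gene minimum of 5%. Mt1, a metallothionein, was at 10.96 and 32.7 CPM (2.99-fold, 2.45 to 3.66), but its log2 ratio with 5 CPM added, 1.24, became −0.16 when a free RNA profile was taken off. The listed gene past 2-fold lower was Cdkn1a, the cyclin-dependent kinase inhibitor p21, at 116 and 52.5 CPM (0.452-fold, 0.412 to 0.497), with a log2 ratio of −0.91 when 20 CPM were added. Of the other targets, over all cells, Sgk1, a kinase, was at 53.8 and 75.1 CPM and Per1, a clock gene, at 80.1 and 86.7 CPM. Dusp1, a phosphatase of the MAP kinases, was at 175 and 203 CPM over all cells. Within the bins of the granule gene share Dusp1 was lower in the GC cells. Its log2 ratios were −0.13, −0.10, −0.10 and −0.15 from the lowest to the highest bin.

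Along the granule gene share Tsc22d3 had log2 ratios of 1.36, 1.22, 0.93 and 1.21 from the lowest to the highest bin. Fkbp5 had 1.61, 2.36, 1.25 and 0.75, and Klf9 had 1.76, 1.76, 0.88 and 0.52. All 12 values were above 0, which was largely built in, since these genes were named as past 2-fold higher over the same cells. Dusp1, given above, was lower in every bin. Hsd11b1, which reactivates glucocorticoid in the cell, was at 203 CPM in the control and 166 CPM in the GC cells (0.815-fold).

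The genes with the largest ratios among those of at least 50 CPM were mostly of low or middle level. Ces2g, a carboxylesterase, was at 1.66 CPM in the control (20 UMIs) and 109 CPM in the GC cells (1379 UMIs), 65.6-fold higher with nothing added (42.3 to 108). Its log2 ratio was 4.10 with 5 CPM added and lay between 2.57 and 5.37 over the alternatives, lowest with 20 CPM and highest with 1 CPM added. At 1000 UMIs per cell a Ces2g UMI was found in 0.257% of control and 11.8% of GC cells (1.43% and 54.2% before thinning), and in 6.15% and 4.95% of hemoglobin-rich barcodes. Ces2g RNA was thus also present in hemoglobin-rich barcodes, at 61.2 CPM in the control and 41.3 CPM in the GC library. F13a1, the A chain of coagulation factor XIII, was at 10.0 and 134 CPM (13.3-fold, 11.1 to 16.1). It was also on the list of monocyte markers; the 13 tested genes of that list had a median log2 ratio of 0.02 and summed to 1060 CPM in the control and 1179 CPM in the GC cells, with Ly6c2 the most abundant, and 15 cells in each library had at least 3 UMIs of Csf1r, Ccr2 and Ms4a6c. The 10 cells with most F13a1 held 80.2% of its UMIs in the control and 9.16% in the GC library.

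Glul, glutamine synthetase, was at 23.6 and 137 CPM (5.83-fold, 5.14 to 6.63). Asprv1, a retroviral-like aspartic protease, was at 94.5 and 479 CPM (5.07-fold, 4.76 to 5.41). Prnp, the prion protein, was at 7.89 and 72.6 CPM (9.21-fold, 7.45 to 11.5). All 3 were past 2-fold and so were Serpine2, a protease inhibitor (12.9 and 67.0 CPM), Sgms1, sphingomyelin synthase 1 (32.5 and 115 CPM), Crispld2, a secreted protein (95.2 and 302 CPM), Pla2g7, the platelet-activating factor acetylhydrolase (14.7 and 50.4 CPM), and Scrg1 (63.0 and 183 CPM). Asprv1 was most abundant in the bin of 1 to 2%, at 293 CPM in the control and 1136 CPM in the GC cells, and lowest in the bin of 10 to 20%, at 25.9 and 94.1 CPM.

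Prss34, a mast cell and basophil protease, was a different case. Its 5.15 CPM in the control and 66.7 CPM in the GC cells gave a log2 ratio of 2.82, but the 10 GC cells with most Prss34 held 87.4% of its UMIs, and the 10 with most Mcpt8, another basophil protease, held 93.3% of that gene's. The 12 listed eosinophil and basophil genes summed to 22.9 CPM in the control and 96.0 CPM in the GC cells, with Prss34 the most abundant, and 1 of them had no UMI. Of its 4 tested genes 2, Prss34 and Mcpt8, were past 2-fold higher and 1 was past 2-fold lower, Prg2, the major basic protein of eosinophils, at 11.5 and 1.502 CPM; 3 control cells and 0 GC cells had at least 3 UMIs of Prg2 and Epx. With a granule gene minimum of 5% the log2 ratio of Prss34 was 1.07, and after thinning it was 1.90. At 1000 UMIs per cell 0.686% of control and 0.705% of GC cells had a Prss34 UMI (hemoglobin-rich barcodes of the GC library had 0.917%), and the part of basophil RNA in this ratio was not tested.

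The 16 genes past 2-fold lower included 4 of the B cell list, Cd79a and Cd79b among them, and the following genes. Ifi27l2a, an interferon-induced gene, was at 56.2 CPM in the control and 14.7 CPM in the GC cells (0.262-fold, 0.221 to 0.308). Acod1, which makes itaconate in activated myeloid cells, was at 144 and 54.0 CPM (0.374-fold, 0.342 to 0.409). Nr4a1, an orphan nuclear receptor induced within minutes of a stimulus, was at 263 and 121 CPM (0.460-fold, 0.432 to 0.489), and Vegfa, the vascular growth factor, at 73.3 and 30.6 CPM (0.417-fold, 0.369 to 0.471). These genes and Cdkn1a were past 2-fold lower. Acod1 differed alike along the granule gene share, with log2 ratios of −1.62, −1.75, −1.66 and −1.75 from the lowest to the highest bin.

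Further low ratios fell short of 2-fold. Gadd45a, a growth arrest gene, was at 268 and 142 CPM (0.529-fold), Ets1, a transcription factor, at 116 and 61.8 CPM (0.535-fold) and Pde4b, a phosphodiesterase, at 130 and 71.6 CPM (0.550-fold). Lilr4b, an inhibitory receptor, was at 548 and 304 CPM (0.555-fold), a value that is uncertain because reads can be split with its close copy Lilrb4a.

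Some lists leaned one way with no gene past 2-fold. All 30 genes of G2 and mitosis had ratios under 1, with a median log2 ratio of −0.34; Mki67, the proliferation antigen, was at 173 CPM in the control and 115 CPM in the GC cells. With the bins weighted alike that median was −0.09. The 24 tested S phase genes had a median of −0.10. Of 18 tested interferon genes 2 were above 0 and the median was −0.38; with the bins weighted alike it was −0.56. The summed level of this list ran the other way, at 4299 CPM in the control and 4539 CPM in the GC cells, with Ifitm6 the most abundant. Of 20 genes of the endoplasmic reticulum and secretory path 17 were above 0, with a median of 0.21 and a highest value of 0.74 for Pdia6, a protein disulfide isomerase. No gene of these 4 lists was past 2-fold, against 0.659% of all tested genes in either direction. Ifi27l2a, the interferon-induced gene given above as past 2-fold lower, was not on the interferon list.

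Other lists lay near the median of all genes. The median log2 ratio was −0.01 for 15 mature neutrophil genes, −0.05 for 14 tested gelatinase and secretory vesicle genes, 0.06 for 23 tested factors of granulopoiesis, 0.07 for 8 NADPH oxidase genes and 0.08 for 24 tested genes of fatty acid uptake and oxidation, and 9 of 19 tested glycolysis genes were above 0; none of these lists had a gene past 2-fold. In the fatty acid list Acadl, a mitochondrial acyl-CoA dehydrogenase, had 0.88, Pnpla2, the triglyceride lipase, 0.65 and Acsl1, an acyl-CoA synthetase, 0.61. Among the 18 tested inflammatory genes 1 was past 2-fold, Pla2g7, and Il1b was at 132 and 126 CPM. Genes that dissociation can induce had a median of −0.25 over 14 tested, with Nr4a1 past 2-fold lower; the part of handling in that value was not tested.

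Markers of other cells differed between the libraries as well. The B cell list summed to 107 CPM in the control and 29.9 CPM in the GC cells, with Ighm the most abundant, and 4 of its 5 tested genes were past 2-fold lower; 11 control cells and 0 GC cells had at least 3 UMIs of Cd79a and Cd79b, where 0 of 1292 (a limit of 3 counts) allows a share of up to 0.232%. The erythroid list summed to 4709 and 8993 CPM, with Hbb-bs the most abundant and 2 of 10 tested genes past 2-fold higher, and 9 and 27 cells held at least 5% hemoglobin. The hemoglobin genes Hba-a1 and Hba-a2 are near-identical copies between which reads can be split, so their separate counts are uncertain. Megakaryocyte, endothelial, stromal, dendritic and T or NK lists summed to under 60 CPM each in both libraries. Stromal and joint genes outside those lists, chosen after their values were seen, differed more: Dcn, the matrix proteoglycan decorin, was at 0.581 CPM in the control (7 UMIs) and 20.8 CPM in the GC cells (263 UMIs), and Prg4, lubricin, had 1 and 81 UMIs. The part of these cells' RNA in the ratios above was not tested. With cells that held at least 5% hemoglobin left out the log2 ratio of Chil3 was 1.67. Another alternative left out the 82 control and 137 GC cells with at least 3 UMIs and 0.2% of UMIs from a list. The lists were those of B, T and NK, and monocyte genes, without Klf4, Cd74, S100a4, Ctss, Nkg7 and Cd68. There the log2 ratio of Chil3 was again 1.67. F13a1, found in 34 control and 651 GC cells, was kept on the monocyte list, so the cells left out are no count of other cell types.

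The same contrast in the neighbouring stages gave a scale for the values above; each class used its own cells of the same 2 libraries, so the classes are not independent. Chil3 had log2 ratios of 2.00 in progenitors (1160 and 4644 CPM), 1.67 in the immature cells and 5.52 in mature neutrophils (133 and 6350 CPM). Fkbp5 had 0.37, 1.42 and 2.79 in the same order, Klf9 0.02, 1.28 and 3.15 and Tsc22d3 0.67, 1.28 and 1.70. Mmp8 had 0.99, 0.99 and 1.57. In progenitors 0.319% of 8459 tested genes were past 2-fold in either direction, in the immature cells 0.659% and in mature neutrophils 3.78% of 7599. The difference between the classes was not tested, and the median over all genes was 0.02, 0.01 and 0.25.

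**Figure D5:**
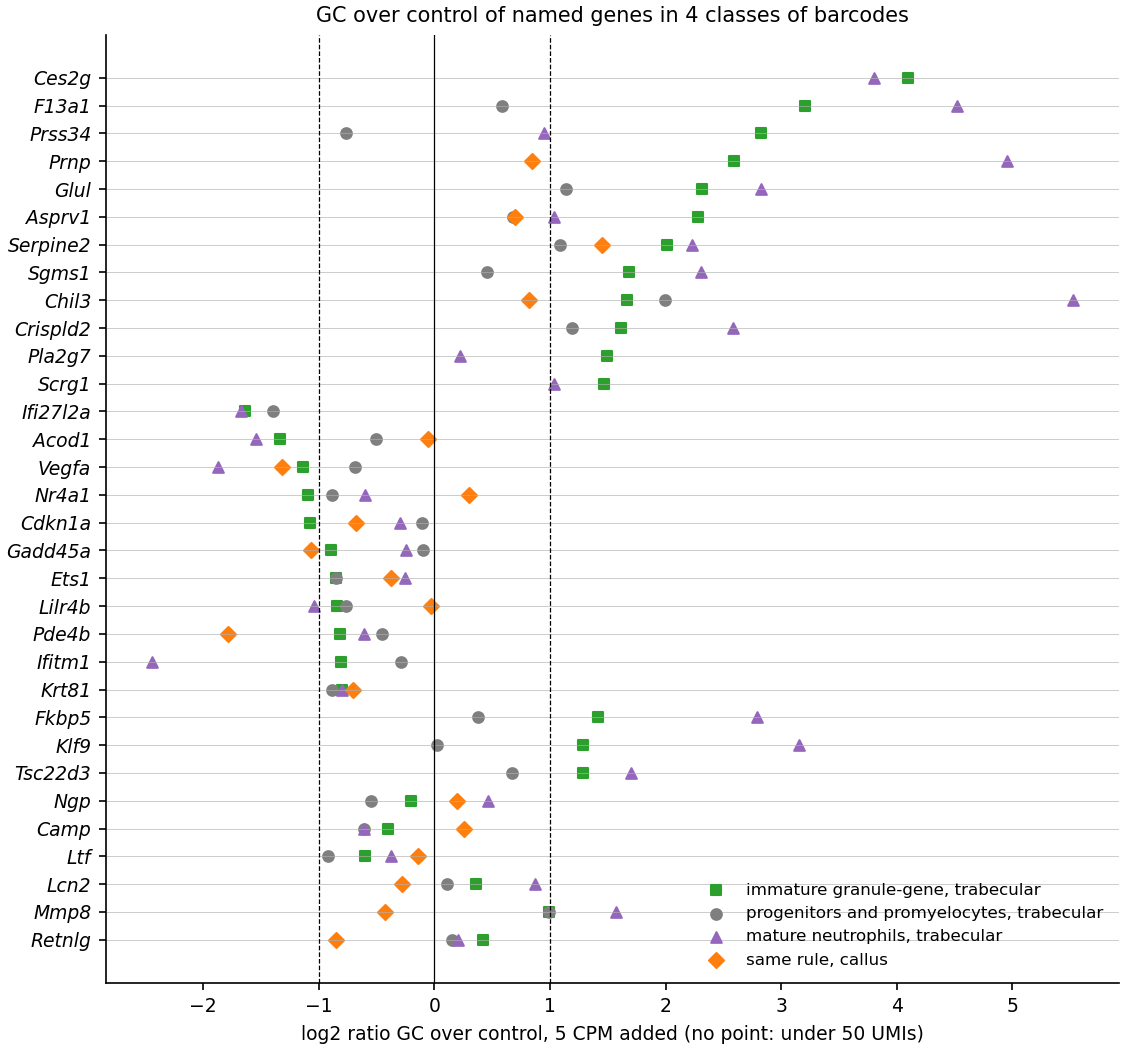
Log2 ratio of GC over control (x axis, 5 CPM added) of genes with the highest and lowest ratios, target genes and granule genes (y axis) in the immature cells, progenitors and mature neutrophils of trabecular bone and in callus barcodes chosen by the same rule; dashed lines mark 2-fold, and a missing point had under 50 UMIs. For Fkbp5, Klf9 and Tsc22d3 the mature neutrophils lie farthest to the right.

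Callus held few cells of the same rule, 65 of 7133 barcodes in the control library (0.911%) and 122 of 7318 in the GC library (1.67%), with a median of 3418 and 2787.5 UMIs per cell. They had 272974 and 438929 UMIs in all, so their ratios are coarse: 12.7% of 1875 tested genes were past 2-fold in either direction. Chil3 was at 1557 CPM in the control and 2750 CPM in the GC callus cells, a log2 ratio of 0.82, and Serpine2 had 1.45, Mt1 1.38 and Asprv1 0.70. Vegfa had −1.32, beside −1.14 in trabecular bone, while Acod1 had −0.05, beside −1.34, and Nr4a1 0.30, beside −1.09. Hemoglobin RNA differed more, with 2 UMIs of Hba-a1 in the control and 160 in the GC callus cells, and 1 and 102 of Hba-a2; its part in the callus ratios was not tested. Retnlg was at 18452 and 10239 CPM (−0.85), beside 9931 and 13318 CPM (0.42) in trabecular bone. Of the callus cells 1 of 65 and 10 of 122 were cycling.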

How the data were processed

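The deposited files hold counts of UMIs per gene and barcode, which the authors made with Cell Ranger on mm10 (version 5.0.1 per the submitters' processing notes, which also name Seurat 3.2.0, and version 4 per the file headers). The trabecular matrices list all 6794880 possible barcodes, empty droplets included, and their library totals were 41239842 and 45876714 UMIs; the GC callus matrix holds only barcodes of at least 500 UMIs. No cell annotation was used. Cells were chosen by the shares of genes given in the results, and no doublet caller was run; cells with markers of other lineages were left out as an alternative. The members and the 33 gene lists were chosen with earlier results of these data known.

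UMIs were summed over the cells of a library and divided by their total (CPM). Ratios were log2 of CPM with 5 CPM added, for genes of at least 50 UMIs over both libraries, and a gene was called past 2-fold with no test, since each condition had 1 library; printed folds are of CPM with nothing added. Intervals are 95% intervals, exact Poisson for a level, exact conditional for a ratio and Clopper-Pearson for a share, and cover counting error only. Where depth mattered, cells were thinned to 1000 UMIs, with the limit of 50 UMIs per gene applied before thinning. Bins of the granule gene share were weighted by their share of all cells of both libraries. Named are listed genes, the 12 highest and 12 lowest ratios among genes of at least 50 CPM in 1 library, not all of which are printed, and the 10 highest ratios over progenitors and over mature neutrophils among genes of at least 200 CPM in both. Promoters and motif shares are from RefSeq on GRCm38.p6, and gene positions from GENCODE M21. Scripts ran in Python 3.11.15 with numpy 2.4.6, scipy 1.17.1 and pandas 2.3.3 and were tested on simulated data.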

Additional observations from a re-analysis of the deposited data

How the results depend on the processing

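No paired analysis was possible because each condition had 1 library. With 1 library per condition the pellet, the mice, the digestion and the library cannot be told apart, and the mix of cells, the free RNA and the cells of other types were unequal between the libraries. Of 38 genes followed through 18 alternatives, 22 were past 2-fold, and 17 of these stayed past it under every alternative. That count is partly built in. The limits of at least 20 and at least 200 UMIs changed only which genes were tested and could not move a ratio. Setting the median log2 ratio to 0 moved all ratios alike, and leaving out shared barcodes removed 1 cell per library. Many of the 38 genes were also chosen as the highest or lowest ratios of these same data. Mt1 reversed, with a log2 ratio of −0.16 after free RNA was subtracted, and had 0.77 with 20 CPM added and 0.89 after thinning. The free RNA was fitted from hemoglobin genes at 4.20% of control and 7.70% of GC UMIs. A few of the cells held much of the Hba-a1 RNA in both libraries. Whether these cells made the fitted percentages too high was not tested. The Mt1 reversal and the counts of genes past 2-fold after subtraction rest on this fit. Vegfa, Cdkn1a, Fkbp5 and Klf9 came under 2-fold with 20 CPM added, at −0.88, −0.91, 0.95 and 0.95 (Klf9 also with a granule gene minimum of 5%, at 0.89). Prss34 lay between 1.07 and 3.67, and Chil3 kept log2 ratios of 1.60 to 2.02. The cause of each change below was not tested.

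The share of cells in the control and GC libraries was 26.3% and 22.0% with a granule gene minimum of 2%. With 5% it was 21.2% and 15.0%. It was 27.9% and 24.1% without cells that held at least 0.2% of a B, T and NK or monocyte list, shortened as given above. With barcodes of at least 5% hemoglobin left out of cells and total it was 32.3% and 30.4%. Genes at least 2-fold higher and lower numbered 91 and 60 with 1 CPM added, 17 and 3 with 20 CPM, and 119 and 101 after thinning; the genes lower numbered 10 with at least 200 UMIs, 34 with 7 abundant genes and hemoglobin left out of the total, and 41 after free RNA was subtracted. The share of higher genes among all past 2-fold was 71.4%, and lay between 50.6% and 85.0% over the alternatives. The median log2 ratio of glucocorticoid targets was 0.22 with 20 CPM, and that of interferon genes −0.21. The specific granule list had −0.12 with the reduced total, −0.093 as a mean over cells, −0.15 after thinning, 0.0055 after free RNA was subtracted and 0.011 with bins weighted alike, and genes of G2 and mitosis had −0.092 with bins weighted alike. Cycling cells in the control and GC libraries were 2.52% and 1.01% with a limit of 1%, 20.3% and 18.6% with a granule gene minimum of 5%, and in the control library 13.2% after thinning.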

Other observations

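Receptors and adhesion molecules of marrow retention and exit stood within 2-fold in the immature cells, with a median log2 ratio of −0.03 over 14 tested genes. Cxcr4, which holds neutrophils in the marrow, was at 165 CPM in the control and 141 CPM in the GC library. Cxcr2, which draws them out, was at 108 and 163 CPM over all cells, but its log2 ratio was 0.63, 0.40, −0.12 and −0.40 from the lowest to the highest bin of the granule gene share. Itga4, the integrin alpha 4 chain, was at 15.2 and 26.5 CPM and Selplg, the P-selectin ligand, at 105 and 152 CPM.

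Transcription factors of the myeloid lineage were spread around 0, and the values that follow are over all cells. Klf6 was at 212 CPM in the control and 341 CPM in the GC library and Spi1, which encodes PU.1, at 423 and 520 CPM, while Junb was at 948 and 671 CPM and Myb, a progenitor factor, at 25.1 and 15.4 CPM. Of the receptors of colony-stimulating factors, Csf3r, the G-CSF receptor, was at 150 and 135 CPM. Il6ra, the interleukin-6 receptor, was at 24.5 and 37.5 CPM, and Il1r2, the interleukin-1 decoy receptor, at 318 and 452 CPM. Mcl1, the survival factor of neutrophils, was at 923 and 1041 CPM. None of these genes was past 2-fold.

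The median log2 ratio was −0.12 over 9 tested genes of the glucocorticoid receptor and its chaperones (Fkbp5 past 2-fold higher). It was 0.13 over 5 S100 genes, 0.06 over 12 genes of the BCL2 family, 0.03 over 11 genes of iron and heme and 0.07 over the 13 mitochondrially encoded genes. Over 13 azurophil granule genes it was 0.04 and over 14 genes of early granulocytes −0.17. These last values are descriptions. The rule capped the azurophil genes Elane, Mpo and Prtn3, and it used Camp, the most abundant gene of the early granulocyte list. Prss34 was past 2-fold higher in the azurophil list, but it is the mast cell and basophil protease given above, with 87.4% of its UMIs in 10 GC cells.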
